A study of Mus musculus with 10 samples.

Results

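The genes described here are 9 genes of myelin and of mature oligodendrocytes, *Mbp*, *Mog*, *Mag*, *Mobp*, *Cnp*, *Mal*, *Opalin*, *Ermn* and *Cldn11*. They were chosen by name, and all 9 were found among the 25232 genes of the deposited table. The table comes from RNA-sequencing of the spinal cord of 5 SOD1G93A and 5 wild type (WT) female mice, all 90 days old. The labels give the strain as C57BL/6, and the methods give a C57BL/6J background. The SOD1G93A mice carry a human *SOD1* transgene at high copy number, with a mutation found in familial amyotrophic lateral sclerosis, and per the methods the WT mice were their littermates. The methods name the lumbar region as the dissected tissue, whereas the labels of the samples name no region of the cord. The level used for each gene is the base mean, which is the authors' mean over all 10 libraries of read counts divided by a size factor per library. The base mean pools both genotypes, so it holds no contrast between SOD1G93A and WT mice, and none is reported. The spread between mice and the depth of each library are unknown here, so every level is a description without an error or a test.

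Oligodendrocytes wrap axons of the central nervous system in many turns of membrane, and most of the cytoplasm between the turns is squeezed out to leave compact myelin. Basic proteins such as MBP hold the cytoplasmic faces of the membrane together. Other proteins keep to special places, with MAG on the inner turn facing the axon, MOG on the outermost turn, CNP in the cytoplasm-filled channels and claudin-11 in the tight junctions between turns. The spinal cord is rich in white matter, and myelin transcripts are known to be abundant in it.

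Among the members, the pair of basic protein genes of compact myelin had the highest levels. *Mbp* (ENSMUSG00000041607.17, chromosome 18), whose protein compacts the cytoplasmic faces of myelin, had a base mean of 319615 normalized counts, rank 1 of the 20973 genes with a base mean above 0. *Mobp* (ENSMUSG00000032517.16), which encodes a small basic protein of compact myelin, lies on chromosome 9 from 120149707 to 120181484 on the plus strand of GRCm38. Its base mean was 85489 normalized counts, at rank 4. *Mbp* thus stood 3.74 times above *Mobp* in base mean. The 9 genes together held 2.22% of the summed base means of all genes (492534 of 22158933), and 64.9% of that members' sum was *Mbp* and 17.4% *Mobp*. Without *Mbp*, the share of the other 8 genes was 0.78%.

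**Figure D1:**
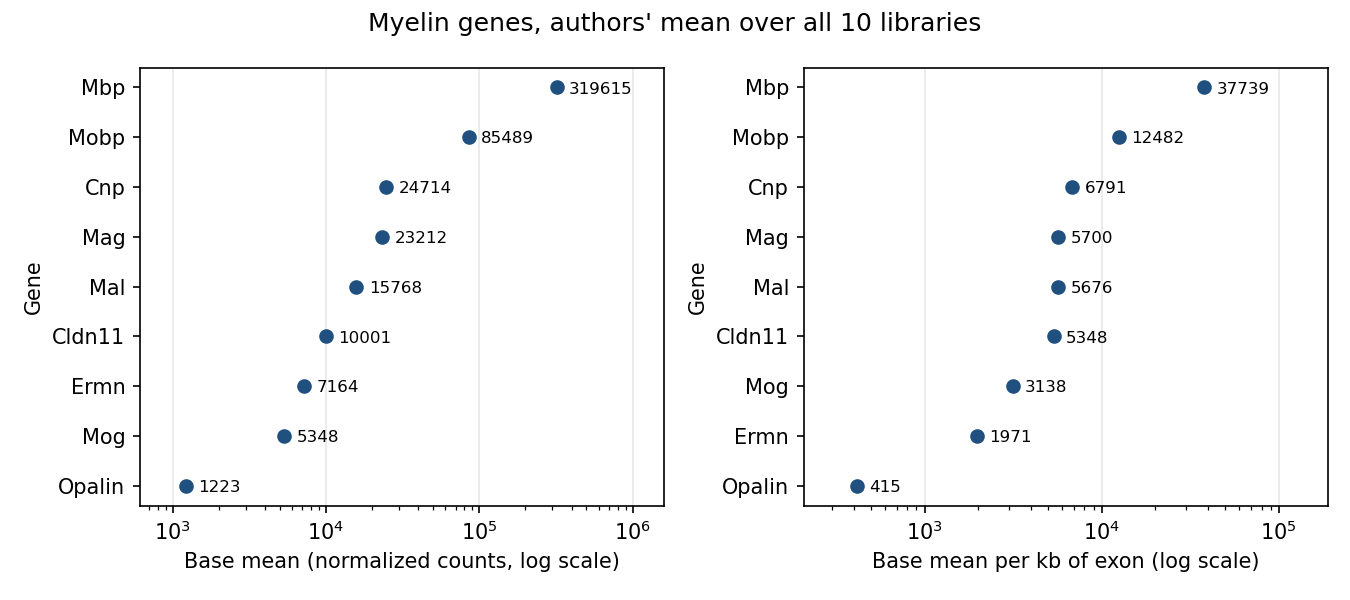
Base mean in normalized counts (left) and base mean per kilobase of exon (right) of the 9 myelin genes, both on log axes, with 1 point per gene for the authors' mean over all 10 libraries and no error bars. *Mbp* and *Mobp* lie highest on both scales and *Opalin* lowest, while *Ermn* and *Mog* change places.

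To compare levels between genes, the base mean was divided by gene length, taken as all exonic bases of the gene in the GENCODE M21 annotation of GRCm38. On this scale *Mbp* had 37739 normalized counts per kilobase and was again at rank 1, among 20358 genes with a length and a level above 0. *Mobp* had 12482 per kilobase, at rank 19. The highest and the lowest member differed 90.9-fold per kilobase, compared with 261-fold in base mean. The 8469 exonic bases of *Mbp* gather 16 annotated transcripts in 13 separate exon blocks, and the longest of these transcripts has 4797 bases. Divided by the longest transcript alone, the level of *Mbp* was 66628 and that of *Mobp* 26016 normalized counts per kilobase. Among the members *Mbp* stayed highest, followed by *Mobp*, whereas ranks among all genes were not computed with this length. For *Mobp*, the exonic bases sum to 6849 over 7 transcripts, and its longest transcript has 3286 bases. Annotated exons of *Mobp* share 79 bases with *Gm38642*, a transcript of the same strand that was not analysed here.

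Because *Mobp* is the highest and *Opalin* the lowest of the members in the RefSeq promoter table, the 250 bases before their starts in it are shown. For *Mobp* this start differs from the GENCODE start given above, 120149707, which lies inside the window. That table (GRCm38.p6) held 8 of the 9 genes in 10 windows, 3 of them for *Mag*. The capitals mark ACAAAG on either strand, the core of the sequence that SOX factors such as the oligodendrocyte regulator SOX10 bind.
Mobp, chr9:120149492-120149741, plus strand: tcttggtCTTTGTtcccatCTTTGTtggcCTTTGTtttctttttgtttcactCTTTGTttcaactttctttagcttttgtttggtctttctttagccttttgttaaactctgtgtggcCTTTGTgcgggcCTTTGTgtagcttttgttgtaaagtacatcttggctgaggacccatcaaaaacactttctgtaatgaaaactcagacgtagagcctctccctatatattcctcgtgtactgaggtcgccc
Opalin, chr19:41077114-41077363, minus strand: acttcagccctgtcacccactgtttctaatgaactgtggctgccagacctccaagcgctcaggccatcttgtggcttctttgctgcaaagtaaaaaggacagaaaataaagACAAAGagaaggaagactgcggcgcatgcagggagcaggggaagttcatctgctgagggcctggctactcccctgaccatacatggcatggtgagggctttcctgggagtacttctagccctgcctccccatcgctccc

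The *Mobp* window held 6 matches to ACAAAG, all on the opposite strand (read as CTTTGT), between 243 and 120 bases before the start. The cutoff of at least 6 is this window's own count, and 1 of 32851 windows of this length (0.00304%), this one, reached it. The share describes the window and is no test. The *Opalin* window held 1 match, 139 bases before the start. At least 1 match was present in 5 of the 10 windows and in 16.5% of all windows. The 5 windows belong to 4 of the 8 genes, *Cnp*, *Mag*, *Mobp* and *Opalin*. The *Mag* windows with a match overlap and share the site. The letters ACAATG are a second SOX sequence, searched on both strands. They were present in 1 of the 10 windows, that of *Ermn*, and in 10.7% of all windows. TATAAA on the gene's own strand was present in 0 of the 10 windows and in 7.59% of all windows. *Mobp* had the lowest content of G and C of the 10 windows, 40.8%, and *Opalin* had 54.4%. These matches describe letters in a window, and binding was not measured.

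A group of 4 genes with different places in the sheath followed, at close levels per kilobase of exon. *Cnp* (ENSMUSG00000006782.16; chromosome 11, 100574904 to 100591729, plus strand) encodes a cyclic nucleotide phosphodiesterase of the cytoplasm-filled channels and had a base mean of 24714, or 6791 normalized counts per kilobase. *Mag* (ENSMUSG00000036634.15; chromosome 7, 30899176 to 30914873, minus strand) encodes a sialic acid-binding adhesion molecule of the membrane next to the axon. Its base mean was 23212, or 5700 per kilobase. *Mal* (ENSMUSG00000027375.14; chromosome 2, 127633226 to 127656695, minus strand), whose product is a proteolipid of membrane rafts that takes part in sorting proteins to myelin, had a base mean of 15768, or 5676 per kilobase. *Cldn11* (ENSMUSG00000037625.7; chromosome 3, 31149920 to 31164324, plus strand) encodes the claudin of the tight junctions between the turns of myelin, and its base mean was 10001, or 5348 per kilobase.

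In base mean, these 4 genes spread from rank 55 for *Cnp* through rank 64 for *Mag* and rank 120 for *Mal* to rank 266 for *Cldn11*. Per kilobase they lay closer together, at ranks 56, 74, 76 and 82. Neighbours in the order *Cnp*, *Mag*, *Mal* and *Cldn11* differed by 1.19-fold or less per kilobase, and whether they differ beyond the spread between mice cannot be told from a pooled mean. Both the order and the closeness depended on the length used. With the longest transcript, *Mag* (9536 per kilobase) stood above *Cnp* (8510). With the longest coding sequence *Mal* stood next after *Mobp* with 34353 normalized counts per kilobase of coding sequence. *Mag* was then the lowest of the 4, with 12340. *Mag* has 8 annotated transcripts and *Cnp* 4, whereas *Cldn11* has 1. Annotated exons of *Cnp* overlap those of *Dnajc7* on the opposite strand by 154 bases. *Dnajc7* had a base mean of 3504. The libraries were stranded, but the strand setting of the counting is not given in the sources used here.

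*Mog*, *Ermn* and *Opalin* had the lowest levels of the 9. *Mog* (ENSMUSG00000076439.12; chromosome 17, 37010743 to 37023398, minus strand) encodes an immunoglobulin-like glycoprotein of the outermost turn of myelin. Its base mean was 5348, or 0.23 times that of *Mag*, the adhesion molecule of the innermost turn. Its level per kilobase was 3138, or 0.551 times that of *Mag*. *Ermn* (ENSMUSG00000026830.9; chromosome 2, 58045113 to 58052864, minus strand) encodes ermin, an actin-binding protein of oligodendrocytes, and had a base mean of 7164 with 1971 normalized counts per kilobase. *Ermn* was above *Mog* in base mean (1.34-fold) and below it per kilobase, where *Mog* was 1.59-fold higher over a shorter gene of 1704 against 3635 exonic bases. Exons of *Ermn* share 237 bases with *Galnt5* on the opposite strand, and *Galnt5* had a base mean of 14.2.

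*Opalin* (ENSMUSG00000050121.9; chromosome 19, 41061710 to 41077113, minus strand), which encodes a transmembrane glycoprotein of oligodendrocytes, stood apart at the low end. Its base mean was 1223, at rank 4482, and its level of 415 per kilobase ranked 2699. It lay 4.75-fold below *Ermn*, the next member above it per kilobase, a wider step than any other between neighbouring members. The median over all genes above 0 was 247 normalized counts in base mean and 63.5 per kilobase, so *Opalin* too lay above the median gene on both scales.

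**Figure D2:**
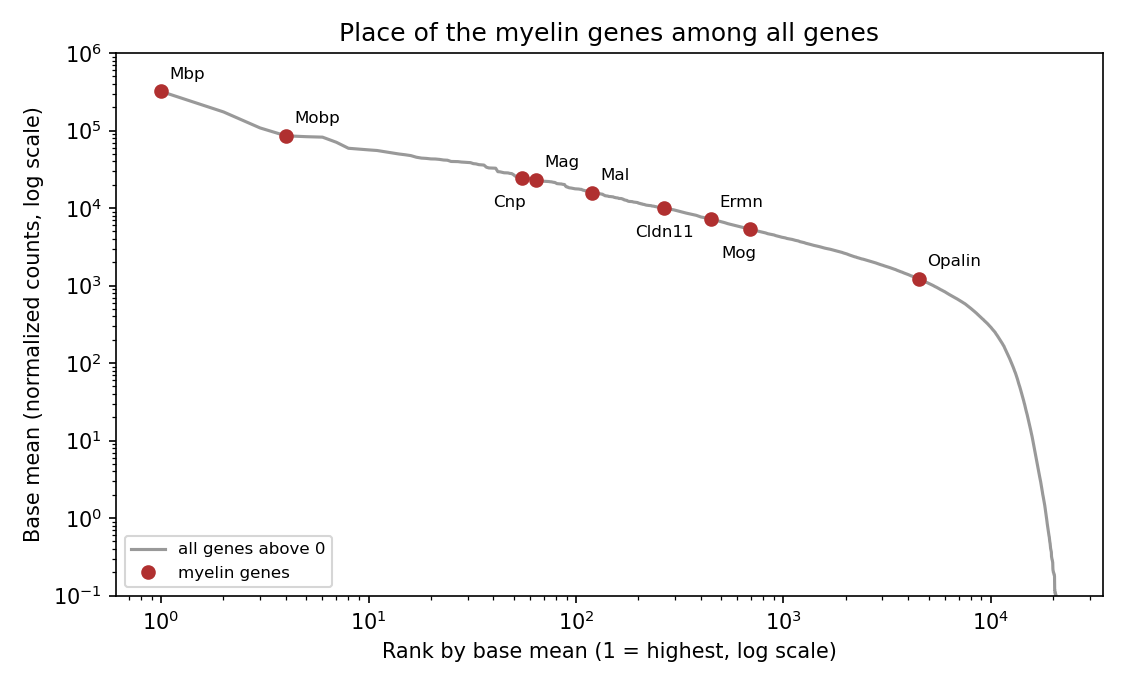
Base mean in normalized counts against rank for the genes with a base mean above 0 (grey line) and the 9 myelin genes (red points), both axes on a log scale. *Mbp* is at rank 1 and *Mobp* at rank 4, another 6 genes lie between ranks 55 and 692, and *Opalin* is at rank 4482.

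By base mean, 5 of the 9 members (*Mbp*, *Mobp*, *Cnp*, *Mag* and *Mal*) were within the top 1% of the genes above 0. Per kilobase, *Cldn11* and *Mog* joined them, which gave 7 of 9. *Ermn* was within the top 5% of genes by base mean and *Opalin* was not, with 21.4% of genes at or above its rank. The median of the 9 genes was 15768 normalized counts in base mean and 5676 per kilobase.

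A list of 16 other genes of myelin and oligodendrocytes had a median of 1403 normalized counts per kilobase, and the median of the 9 members was 4.05 times as high. Of the 16, 3 were above the members' median and 14 above the lowest member, *Opalin*. *Trf*, which encodes transferrin and is made by oligodendrocytes in the central nervous system, had 15007 per kilobase, and *Apod*, an apolipoprotein gene, had 6078, the closest list gene above *Mag*, *Mal* and *Cldn11*. *Ninj2*, which encodes an adhesion molecule, was the lowest at 92.9 per kilobase. The galactolipid enzymes *Ugt8a* (1552) and *Fa2h* (1407) lay between *Ermn* and *Opalin*, as did the gap junction gene *Gjb1* (1168 per kilobase).

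Transcription factors of the lineage had lower levels. Their list of 7 had a median of 505 per kilobase, and 0 of the 7 were above the members' median. *Olig1*, a factor of the oligodendrocyte lineage, was the highest with 2635, between *Mog* and *Ermn*. *Sox10* had 1038 and *Myrf*, the regulator of myelin genes in mature cells, had 744, both above *Opalin*. *Zfp488* was the lowest with 41.7 per kilobase. The list of 8 genes of oligodendrocyte precursors and of the early lineage had a median of 170 per kilobase. Of the 8, 1 was above *Opalin*. That gene was *Lhfpl3* with 459, and *Pdgfra*, the growth factor receptor that marks precursors, had 133, so that *Opalin* was 3.11-fold higher than *Pdgfra* per kilobase. In base mean the order of this pair was turned, with 1338 for *Pdgfra* and 1223 for *Opalin*.

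MAG is one of several myelin ligands that limit axon growth, and the genes of the other ligands and of their receptors formed a list of 8. Per kilobase, *Mag* was 2.39-fold higher than *Rtn4*, the gene of Nogo and the highest of the list (2385), and 4.12-fold higher than *Omg* (1383). In base mean, *Mag* was 1.39-fold higher than *Rtn4* and 7.53-fold higher than *Omg*. The receptor genes were lower. *Rtn4r*, the Nogo receptor to which MAG also binds, had 77.1 per kilobase and *Rtn4rl2*, another MAG receptor gene, had 4.76 at a base mean of 7.16, the lowest of the list. The co-receptor gene *Lingo1* had 308 per kilobase. The paranode is the contact of axon and glia beside the node. A list of 5 genes covered contacts of the node, the paranode and the stretch next to the paranode. Of these, *Cntnap1* (1355), *Cntn2* (1303), *Nfasc* (1268) and *Cntn1* (1215) lay close together between *Ermn* and *Opalin* per kilobase. In base mean all 4 stood above *Ermn* (7164), from 7962 for *Cntnap1* to 17933 for *Nfasc*. The fifth, *Cntnap2*, had 283 per kilobase.

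Members were also set beside genes of related proteins. *Cldn11* was 10.7-fold higher than *Cldn5*, the claudin of the endothelium, and 12.2-fold higher than *Cldn10*, a claudin of astrocytes, per kilobase. *Mal* was 3.47-fold higher than *Pllp*, a related myelin proteolipid gene, and 32.3-fold higher than *Mal2*. *Ermn* was higher than each of the ezrin, radixin and moesin genes, by 11.3-fold for *Ezr*, 2.48-fold for *Rdx* and 4.71-fold for *Msn*. The siglec genes *Siglech* (83.8), *Cd33* (18.5), *Cd22* (4.17) and *Siglec1* (3.71 per kilobase) were all below *Mag*, which belongs to the same family. *Siglec1* was the lowest of the 12 related genes.

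**Figure D3:**
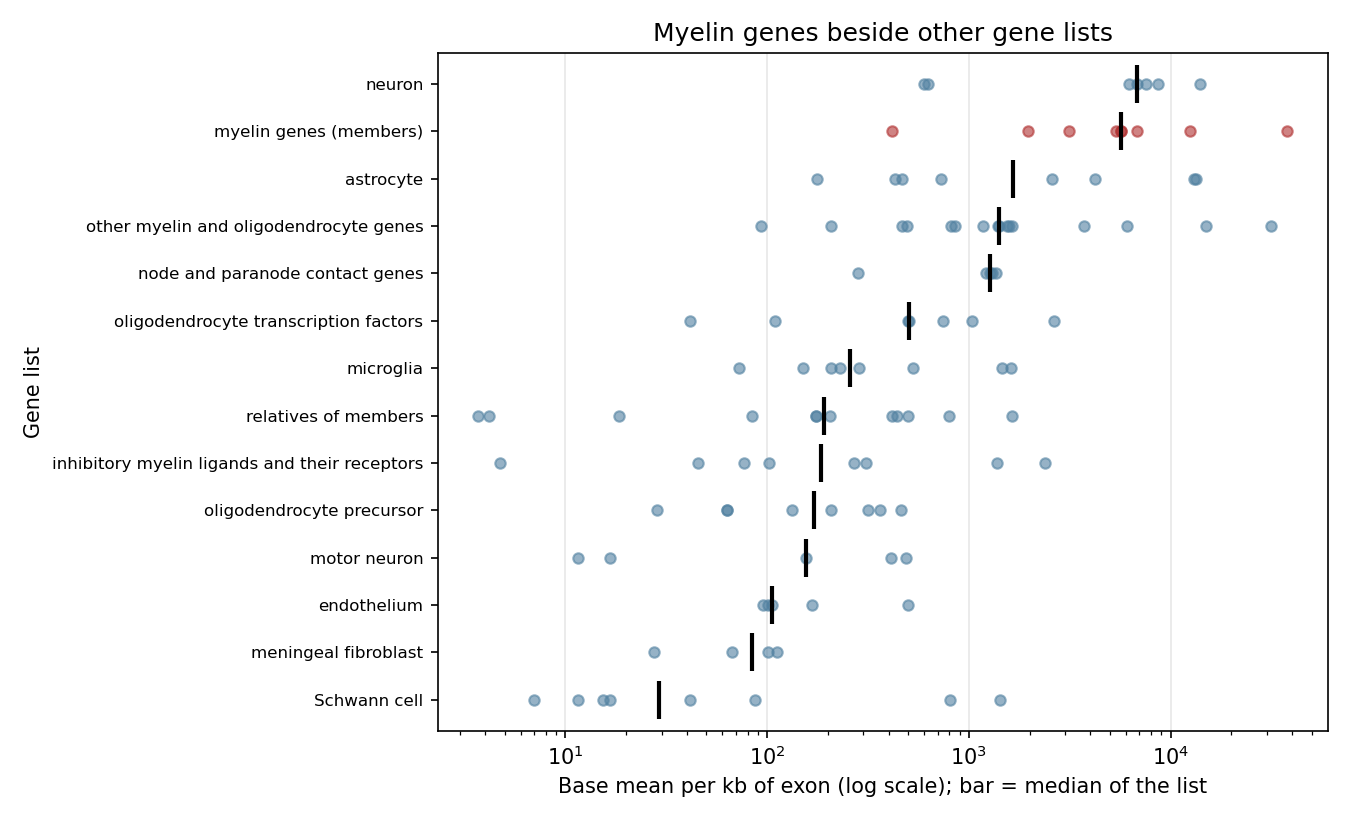
Base mean per kilobase of exon (log axis) for the 9 myelin genes (red) and the genes of 13 other lists (blue), 1 point per gene, with a black bar at the median of each list. The median of the myelin genes is 5676, below that of the neuron list (6802) and above the other 12. The list of blood genes is not drawn, since its 4 genes are listed at 0.

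The labelled tissue was checked against markers of its cell types. Genes of neurons (median 6802 per kilobase over 7 genes) and astrocytes (1651 over 8) were at high levels beside the myelin genes. *Mbp* was 2.83-fold higher per kilobase than *Gfap*, the astrocyte filament gene (13345), and *Mobp* was at 0.935 times its level, but at 1.52 times its level in base mean. Schwann cells make the myelin of peripheral nerve and also transcribe *Mbp*, *Mag*, *Cnp* and *Mal*. Of 8 Schwann cell genes, 0 were at 0 and 2 were above *Opalin*, among them *Pmp22* at 1418 per kilobase. The 8 genes had a median of 29.2 per kilobase and summed to 0.026% of all base means, against 2.22% for the members. The part of peripheral myelin in the levels of these members was not tested. In whole tissue, more cells of a type and more RNA per cell cannot be told apart.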

How the data were processed

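RNA of the spinal cord of 5 SOD1G93A and 5 WT females was sequenced. According to the methods and the submitters' processing notes, the authors filtered reads with Fastp, aligned them to mm10 with HISAT2 2.1.0, counted uniquely mapped reads with featureCounts 2.0.2 and ran DESeq2; the gene annotation is not given in the sources used here. The deposited signal is the base mean, computed by the authors from size-factor normalized counts over all 10 libraries. The other 5 columns hold the authors' own comparison of the genotypes (log2 fold change, standard error, Wald statistic, p-value and adjusted p-value) and were not used, so no test was made.

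Symbols were matched to GENCODE M21 (GRCm38, the build of mm10), where 24310 of 25232 (96.3%) matched a single gene. Lengths are the union of all exons annotated in GENCODE M21. These may differ from the exons over which the authors counted reads, which bears on every level per kilobase. The members and the 14 gene lists were chosen with earlier results of these data known. Genes named are all members, the highest and lowest gene of each list, genes at 0, list genes nearest in level to a member, and genes of the oligodendrocyte, ligand and related-protein lists with a described function. Some genes that this rule covers are not reported here. Ranks and lengths were tested on simulated data. Python 3.11.15, numpy 2.4.6, pandas 2.3.3 and matplotlib 3.10.9 were used.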

Additional observations from a re-analysis of the deposited data

How the results depend on the processing

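No paired analysis was possible because the base mean is a single value per gene over all libraries, and for the same reason no library could be left out. The 9 genes held 2.22% of the summed base means, and 2.31% when the 10 highest genes outside the list were left out of the sum. The table has 0 symbols that start with mt-, the prefix by which mitochondrially encoded genes were sought, so leaving these out was not run. Other names of these genes were not searched. The number of members in the top 1% was 5 also when ranked only among genes whose base mean reached 10, 7 per kilobase, and 8 in the top 5%. The median level of the 9 genes was 5676 per kilobase both with all exons and with the longest transcript, and 16105 per kilobase of the longest coding sequence, an alternative chosen after seeing the data because the planned protein lengths were not used here. *Mbp* and *Mobp* were highest and *Opalin* lowest under all 3 lengths and without division by length, whereas the places of the other 6 genes changed. The median over the 14 other lists' medians was 188 per kilobase, and 916 in base mean without division by length. The depth of each library, the spread between mice and the transcripts in use in this tissue are unknown here.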

Other observations

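Genes of neurons and astrocytes lay among the myelin genes in level, whereas most genes of the motor neuron, microglia, endothelium and meningeal fibroblast lists lay below *Opalin*, the lowest member. All places below are per kilobase of exon. The highest gene of the neuron list was *Nefl*, the light neurofilament gene, with 14045 normalized counts per kilobase, above *Mobp* (12482), and the lowest was *Rbfox3* with 601. In base mean the order turned, with 47472 normalized counts for *Nefl* and 42406 for *Aldoc* against 85489 for *Mobp*. *Snap25*, a gene of synaptic vesicle fusion, had 8695 and was the nearest list gene below *Mobp*, and the glycolytic astrocyte gene *Aldoc* (12996) was the nearest above it. *Tubb3* (6802) and *Nefh* (6192) enclosed *Cnp* (6791), and the glutamate transporter gene *Slc1a2* (4207) was the nearest below *Mag*, *Mal* and *Cldn11*, although its base mean of 55252 was above those of all 3. *Sox9* was the lowest of the astrocyte list with 176. Motor neuron genes were lower, with a median of 156 per kilobase, from 485 for *Slc18a3*, the vesicular acetylcholine transporter, to 11.5 for *Isl1*. *Slc5a7*, the choline transporter gene, had 410 and was the nearest list gene below *Opalin* (415), and *Msn* (418) the nearest above it.

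Microglial genes had a median of 256 per kilobase, and *Aif1* was the lowest of the list (72.2). The endothelial list had a median of 106, between *Cldn5* (501) and *Tek* (95.6), and the list of meningeal fibroblasts one of 83.9, between *Dcn* (112) and *Lum* (27.5). *Dhh* was the lowest Schwann cell gene, with 7 normalized counts per kilobase. *Bmp4* was the lowest of the list of precursors and the early lineage, with 28.6. *Car2*, a carbonic anhydrase gene of oligodendrocytes, had 3708 and was the nearest list gene above *Mog*. The hemoglobin genes *Hba-a1*, *Hba-a2*, *Hbb-bs* and *Hbb-bt* were all listed at 0. They belong to families of near-identical copies, and the authors counted uniquely mapped reads; the part of that step in these zeros was not tested.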
